A study of Homo sapiens with 6 samples.

Results

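The interleukin-1 (IL-1) family ligands and receptors described here were 10 genes of the 30267 genes measured, taken by symbol. They comprised the ligands IL1A, IL1B, IL18, IL33 and IL36G, the receptor antagonist IL1RN, the receptor chains IL1R1, IL1RAP and IL1RL1, and the decoy receptor IL1R2. RNA sequencing was performed on SW839, an established human renal cell carcinoma (RCC) line. It carried either a short hairpin RNA against RNF25, an E3 ubiquitin ligase (shRNF25, n = 3), or the pLKO control vector (shControl, n = 3). All 6 libraries came from the same line grown in medium with fetal bovine serum, and the labels name no added cytokine. The labels give 1 hairpin name only, and the study's methods describe lentiviral cells under puromycin selection, so an effect of the hairpin and an effect of losing RNF25 cannot be told apart here.

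IL-1 family cytokines are secreted or released proteins that start inflammation. The proteins encoded by IL1A and IL1B bind the receptor chain IL1R1, which then recruits the shared chain IL1RAP and signals through MYD88 and IRAK kinases to NF-kappaB and MAP kinases. The antagonist encoded by IL1RN occupies IL1R1 without recruiting IL1RAP, and the IL1R2 protein binds ligand but lacks the signaling domain. IL-33 is sensed through IL1RL1, also known as ST2, and IL-18 through a receptor pair of its own. Epithelial cells and myeloid cells are known sources of these ligands.

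The libraries held between 18647460 and 19943154 reads. RNF25 itself had normalized counts of 694.2, 533.5 and 536.4 in the shControl libraries and of 214.1, 245.7 and 265 in the shRNF25 libraries. Its mean in shRNF25 was 41.1% of that in shControl, and all 3 shRNF25 libraries lay below all 3 shControl libraries. RNF25 shares 260 exonic bases with STK36 on the other strand. The strand setting of the counting is not given, so reads there are uncertain. Replicates differed more in shControl (biological coefficient of variation 20.63%) than in shRNF25 (5.01%). The control libraries carry names of different forms and the labels give no batch, so a batch and the knockdown cannot be told apart. The renal transcription factor PAX8 (76.7 to 140.3 normalized counts) and the keratin KRT8 (22206 to 38009) were present in every library. CA9, a hypoxia target typical of clear cell RCC, was low, at 1.85 to 50.7, as was the listed renal carcinoma marker NDUFA4L2, at 10.5 to 33.5. Of 10 myeloid and leukocyte markers, 9 were measured. Their summed normalized count was 91.3 to 111.2 in shControl and 93.4 to 129.4 in shRNF25. The leukocyte antigen PTPRC did not exceed 14.6, the monocyte marker CD14 8.31 or lysozyme (LYZ) 4.10 in any library. The highest values of the other markers were 50.1 for ITGAM, 38.85 for CSF1R, 34.5 for LAPTM5 and 22.8 for FCGR1A. CD163 reached 5.72 and AIF1 2.21. Of the fibroblast markers, COL1A1 was at 847.8 to 1258 and the others did not exceed 28.1 (LUM).

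Genes were called lower or higher at an adjusted p below 0.05 (limma, Benjamini-Hochberg over 16554 tested genes) with a fold change of at least 1.5. All fold changes are log2 differences, shRNF25 against shControl, of the normalized count plus 1. IL1A, IL1B, IL1R2 and IL1RAP were lower, which is 4 of the 9 members tested, against 7.1% of all tested genes. No member was higher, against 8.65% of all tested genes. Among the tested members 5 had all shRNF25 libraries below all shControl libraries, against 21.8% of all tested genes. Their median log2 difference was -0.64, against -0.01 over all tested genes. IL36G was the member not tested, since it reached a normalized count of 10 in only 2 libraries. Each of the other 9 members was above 10 in all 6 libraries. In a bulk sample, fewer cells that express a gene and less RNA per cell cannot be told apart. Of the 5 myeloid and leukocyte markers tested, LAPTM5 was lower and ITGAM and FCGR1A were higher, and the mesenchymal marker VIM was higher too. The part of these differences in the results was not tested.

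**Figure D1:**
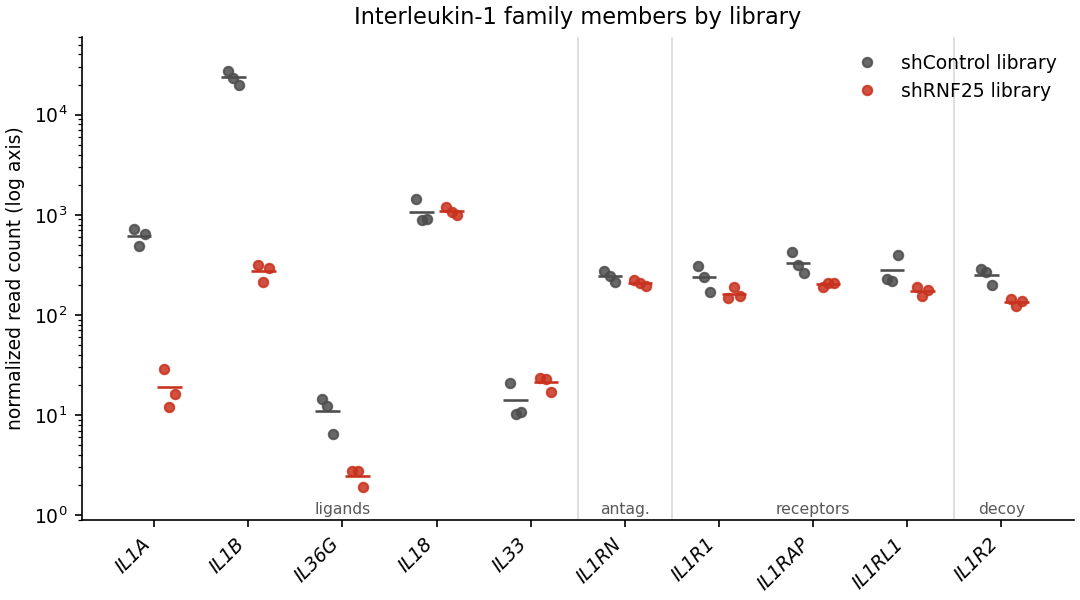
Normalized read count (log axis) of each of the 10 members in the 3 shControl and 3 shRNF25 libraries, with a line at each group mean and the members ordered by role. IL1A and IL1B are far apart between the groups, while IL18, IL33, IL1RN and IL1R1 overlap.

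IL1A and IL1B encode the agonist ligands IL-1alpha and IL-1beta, and they are neighboring genes on the long arm of chromosome 2, both on the minus strand. IL1A (ENSG00000115008.5) is annotated at chr2:112773915-112784590 and IL1B (ENSG00000125538.11) at chr2:112829751-112836903 of GRCh38 in GENCODE 29. The stretches of 250 bases upstream of their RefSeq start sites (GRCh38.p14) are printed because these were the members with the largest differences and lie next to each other. They are written 5′ to 3′ along the gene, and capitals mark a match to the AP-1 motif TGANTCA. The IL1A stretch lies at chr2:112784494-112784743 and the IL1B stretch at chr2:112836780-112837029, both on the minus strand. Both overlap the gene spans annotated in GENCODE 29, so the RefSeq start sites used lie within those spans.
IL1A: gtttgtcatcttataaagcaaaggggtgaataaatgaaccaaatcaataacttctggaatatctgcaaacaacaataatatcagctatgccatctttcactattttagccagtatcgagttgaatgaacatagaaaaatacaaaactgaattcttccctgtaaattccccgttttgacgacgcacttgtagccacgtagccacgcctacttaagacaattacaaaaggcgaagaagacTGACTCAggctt
IL1B: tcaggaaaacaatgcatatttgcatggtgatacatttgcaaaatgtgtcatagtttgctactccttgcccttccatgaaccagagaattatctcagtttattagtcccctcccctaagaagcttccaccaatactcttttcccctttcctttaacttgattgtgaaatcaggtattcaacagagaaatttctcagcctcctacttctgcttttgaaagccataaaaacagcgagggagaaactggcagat
The IL1A stretch held TGACTCA, 12 bases before the start site. RefSeq gives IL1A a further start site, whose overlapping stretch held the same TGACTCA and a TGAGTCA. No AP-1 match was found in the IL1B stretch, and neither gene had a match to the kappaB consensus or to the cyclic AMP response element TGACGTCA. Both strands were searched, and among 35116 upstream stretches of all RefSeq genes 6.57% held the AP-1 motif, 5.21% the kappaB consensus and 1.65% TGACGTCA. These are letter matches in a short stretch and say nothing of binding.

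IL1B was among the most abundant transcripts of the control cells. Its normalized counts were 27438, 23458 and 19808 in the shControl libraries and 318, 212.4 and 295.5 in the shRNF25 libraries. The groups did not overlap, and the lowest control value was far above the highest shRNF25 value. The mean was 23568 ± 3816 in shControl and 275.3 ± 55.6 in shRNF25 (SD, n = 3), or 1.17% of control. IL1B thus fell by 6.42 on the log2 scale (95% confidence interval -6.81 to -6.03, adjusted p = 3.996e-07, limma), an 85.8-fold difference on that scale. On that scale only SAA1 had a lower fold change among the 16554 tested genes. This rank depends on the added count of 1, since by mean normalized count SAA2 fell further, to 0.618% of control. Before scaling, these values rested on 18353 to 24821 reads per shControl library and on 230 to 349 reads per shRNF25 library, so the low side was well above the counting limit.

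IL1A was less abundant but moved in the same direction. It had normalized counts of 727.4, 490.4 and 642.2 in shControl and of 29.16, 12.01 and 16.2 in shRNF25. The groups did not overlap. The mean was 620 ± 120 against 19.1 ± 8.94 (SD, n = 3), which is 3.08% of control. IL1A fell by 5.02 on the log2 scale (95% confidence interval -5.69 to -4.35, adjusted p = 1.669e-05, limma). It ranked 9 among the tested genes by size of fall on that scale. The shRNF25 values came from 13 to 32 reads per library, so the depth of the fall in IL1A is less precise than in IL1B.

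IL36G encodes IL-36gamma, an epithelial ligand of the same chromosome 2 cluster (chr2:112973203-112985665). It was near the detection limit, with normalized counts of 14.4, 12.3 and 6.48 in shControl and of 2.73, 2.77 and 1.91 in shRNF25. Summed over the libraries it had 31 reads in shControl and 8 in shRNF25. After scaling, the ratio was 0.224 (exact 95% interval 0.0891 to 0.499), an interval that covers counting error only. The groups did not overlap, and no test was run at the filter used.

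IL18 and IL33 encode ligands that, unlike IL-1beta, are often held ready in epithelial cells. IL18 (chr11:112143251-112164117) had normalized counts of 1446, 879.3 and 900.1 in shControl and of 1197, 1057 and 988.5 in shRNF25. The shRNF25 values lay inside the control range. Its log2 difference was 0.04 (95% confidence interval -0.38 to 0.47, adjusted p = 0.895, limma). IL33 (chr9:6215786-6257983) had 21.0, 10.3 and 10.8 in shControl and 23.7, 23.1 and 17.2 in shRNF25. Its log2 difference was 0.63 (95% confidence interval -0.13 to 1.38, adjusted p = 0.213, limma), and the groups overlapped. With 10 to 26 reads per library, the interval for IL33 spans a modest decrease to a more than 2-fold increase. Without shControl replicate 1 it became 0.94 with an adjusted p of 0.0365 (limma), so its place among the members without a call rested on that library.

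The antagonist IL1RN (chr2:113107214-113134016, plus strand) lies at the far end of the same cluster. Its normalized counts were 275.3, 246.2 and 211.5 in shControl and 223.2, 207.8 and 192.5 in shRNF25, and the groups overlapped. The log2 difference was -0.23 (95% confidence interval -0.56 to 0.10, adjusted p = 0.302, limma). An upstream stretch of IL1RN at chr2:113117721-113117970 also held the AP-1 motif, 223 bases before the start site, and is shown for comparison with IL1A.
IL1RN: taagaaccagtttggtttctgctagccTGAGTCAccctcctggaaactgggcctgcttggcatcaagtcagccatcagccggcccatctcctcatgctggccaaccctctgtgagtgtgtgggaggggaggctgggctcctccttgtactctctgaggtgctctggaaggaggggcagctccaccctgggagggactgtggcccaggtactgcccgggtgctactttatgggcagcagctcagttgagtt
The AP-1 letters were thus found in both IL1A stretches and in 1 of 3 IL1RN stretches, but not in the IL1B stretch. The only further member with a match was IL1RL1, in 1 of its 2 stretches, 191 bases before a start site. The IL1RN and IL1RL1 stretches with a match lie inside the annotated genes, before internal start sites. No stretch was available for IL18.

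The receptor genes IL1R2, IL1R1 and IL1RL1 form a separate cluster on chromosome 2. IL1R1, the signaling receptor for IL-1alpha and IL-1beta (chr2:102064544-102179874), had normalized counts of 307.3, 241.1 and 170.5 in shControl. In shRNF25 it had 146.7, 189.3 and 154.4, which overlapped the control range. Its log2 difference of -0.52 did not pass (95% confidence interval -1.01 to -0.03, adjusted p = 0.123, limma). Without shControl replicate 3, the lowest control library, it was -0.74 and passed (adjusted p = 0.0203, limma). An antisense gene, IL1R1-AS1, shares 11 exonic bases with IL1R1, and reads there may be split between them.

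IL1RAP, the accessory chain shared by the receptors for IL-1, IL-33 and IL-36, lies apart on chromosome 3 (chr3:190514051-190659750). It had normalized counts of 422.3, 318.1 and 261.2 in shControl and of 190.4, 208.7 and 210.7 in shRNF25. The groups did not overlap, and the lowest control library was closer to the shRNF25 values than to the highest control library. IL1RAP fell by 0.69 on the log2 scale (95% confidence interval -1.09 to -0.28, adjusted p = 0.0252, limma). The call was lost in 5 of the 6 fits that left out 1 library, where the adjusted p reached 0.112 without shRNF25 replicate 1. Without shControl replicate 1 the difference was -0.50, under the 1.5-fold limit, with an adjusted p of 0.0129. A long non-coding RNA, AC108747.1, shares 535 exonic bases with IL1RAP on the same strand, so the reads of IL1RAP are uncertain to that extent.

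IL1RL1, the IL-33 receptor (chr2:102311502-102352037), had normalized counts of 229.9, 217.5 and 399.3 in shControl and of 191.3, 156.1 and 176.3 in shRNF25. The groups did not overlap, and shControl replicate 3 was far above the other control libraries. Its log2 difference of -0.64 did not pass (95% confidence interval -1.15 to -0.13, adjusted p = 0.0761, limma), whereas DESeq2 on the recovered reads gave -0.68 with an adjusted p of 0.0332. Without shControl replicate 1 it was -0.76 with an adjusted p of 0.0279 (limma). Without shControl replicate 3 it was -0.36 with an adjusted p of 0.111 (limma), so its size rested largely on that library. IL1RL1 and IL18R1 share 95 exonic bases on the same strand, and reads there cannot be assigned to either.

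IL1R2, the decoy receptor (chr2:101991844-102028544), had the largest difference of the 4 receptor genes among the members. Its normalized counts were 290.7, 267.8 and 198.6 in shControl and 145.8, 121.9 and 136.3 in shRNF25, with no overlap. The mean went from 252.4 ± 48.0 to 134.7 ± 12.03 (SD, n = 3), or 53.4% of control. IL1R2 fell by 0.89 on the log2 scale (95% confidence interval -1.28 to -0.49, adjusted p = 0.00726, limma).

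**Figure D2:**
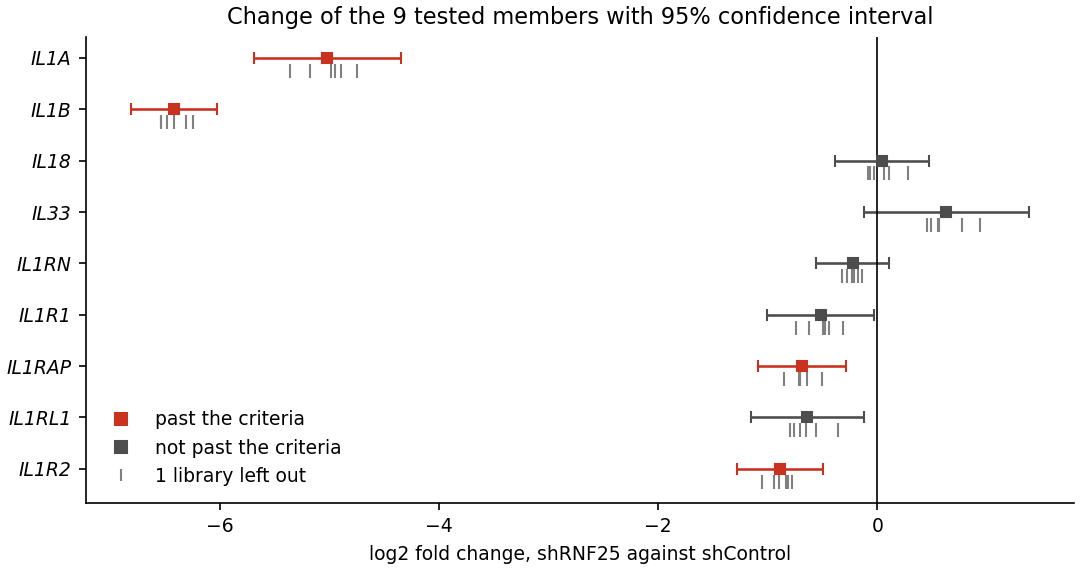
Log2 fold change of the 9 tested members, shRNF25 against shControl, with the 95% confidence interval from limma (squares and bars) and the value when 1 library was left out (ticks). IL1B at -6.42 and IL1A at -5.02 stand far from the other members, which lie between -0.89 and 0.63.

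Levels were compared between genes per kilobase of exon, with all annotated exons of a gene merged. The length of the transcripts present is not known, so this comparison is approximate. IL1B was the most abundant member in shControl, with a mean normalized count per kilobase of 7612. IL18 followed at 409 and IL1A at 292, and the ranges of IL18 and IL1A overlapped. IL1R2 (82.1), IL1RN (75.1), IL1RL1 (49.1), IL1R1 (33.8) and IL1RAP (28.9) formed a middle group in which each gene overlapped the next. The merged exons of IL1RAP span 11558 bases, and by mean normalized count in shControl (333.8) it was the highest of that group. IL36G (8.01) and IL33 (4.31) were lowest and overlapped each other. In shRNF25 the order began with IL18 at 411 per kilobase, followed by IL1B at 88.9 and IL1RN at 63.8. Then came IL1R2 (43.8), IL1RL1 (30.4), IL1R1 (23.1), IL1RAP (17.6), IL1A (9.003), IL33 (6.55) and IL36G (1.79). Of these neighbors in shRNF25, only IL1A and IL33 overlapped. Among 15940 tested genes with an annotated length, IL1B went from rank 55 to rank 7394 and IL1A from rank 3224 to rank 13924.

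The balance between antagonist and agonist transcripts was taken within each library, so that it does not depend on scaling between libraries. Per kilobase, the ratio of IL1RN to IL1B was 0.00954, 0.00998 and 0.0102 in shControl and 0.668, 0.930 and 0.620 in shRNF25. Antagonist transcripts were thus rare beside IL1B in control cells, and 0.620 to 0.930 times as frequent as IL1B in shRNF25 cells. On the log2 scale of normalized counts the mean ratio went from -6.58 ± 0.05 to -0.39 ± 0.31 (SD, n = 3), a difference of 6.20. IL1RN to IL1A went from 0.247, 0.328 and 0.215 per kilobase to 4.99, 11.3 and 7.75, a log2 difference of 4.79. IL1A transcripts were the more frequent of the pair in every shControl library and IL1RN transcripts in every shRNF25 library. The agonists did not fall by the same factor, since IL1B to IL1A went from 25.9, 32.8 and 21.2 per kilobase to 7.48, 12.1 and 12.5, a log2 difference of -1.40. These 3 ratios each reached an exact permutation p of 0.1 (two-sided), the smallest that 3 against 3 allows, and 0.167 after adjustment over the 5 ratios tested. Decoy to signaling receptor (IL1R2 to IL1R1) differed by -0.37 and accessory to signaling receptor (IL1RAP to IL1R1) by -0.17 on the log2 scale, each with an exact permutation p of 0.2 (two-sided). The receptor ratios overlapped between the groups.

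**Figure D3:**
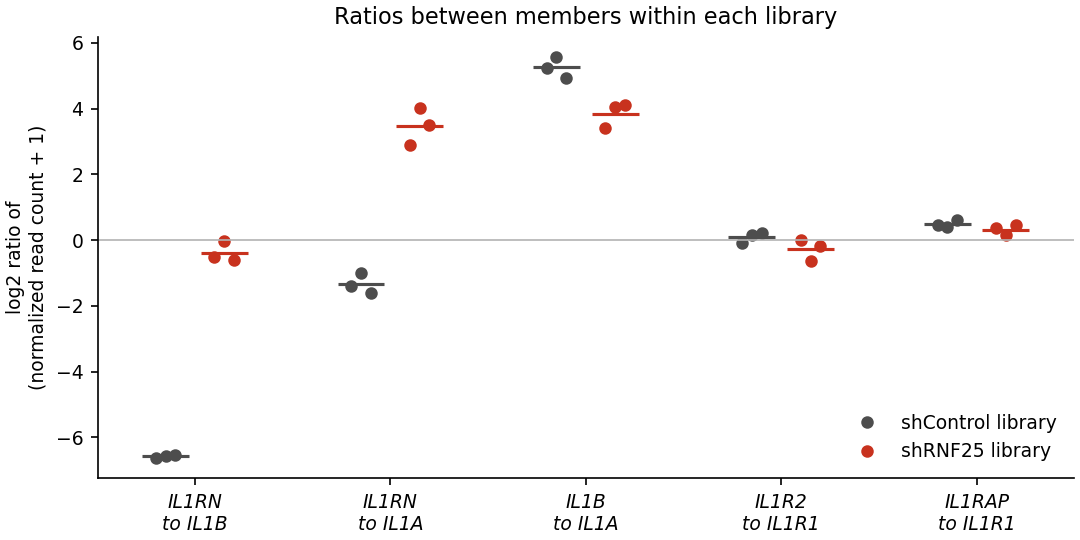
Log2 ratio of normalized read counts (each plus 1) between pairs of members within each library, with a line at each group mean (3 libraries per group). IL1RN to IL1B moves from a mean of -6.58 to -0.39, IL1RN to IL1A crosses from below to above 0, and the receptor ratios stay near 0.

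Within 500 kb of the span from IL1A to IL1RN, 34 further genes were measured and 24 tested. Of these, IL37 and CKAP2L were lower and 5 genes were higher, against 7.1% lower and 8.65% higher among all tested genes, so the lower count was near that background. IL37, a family ligand with anti-inflammatory activity that starts 76.1 kb from IL1B, had normalized counts of 161.4, 170.3 and 144.6 in shControl and of 18.22, 12.01 and 10.49 in shRNF25. It fell by 3.49 on the log2 scale (adjusted p = 3.192e-05, limma). CKAP2L, a mitotic spindle gene on the other side of IL1A, fell by 1.00 (adjusted p = 0.0247, limma). Its normalized counts were 2639, 1459 and 1116 in shControl and 781.8, 848.7 and 804.5 in shRNF25. The CKAP2L call was lost without shControl replicate 2 or any 1 shRNF25 library, where IL37 was the 1 lower neighbor. IL36RN, the antagonist of the IL-36 receptor, lies between IL37 and IL1RN, 221.7 kb from IL1B, and differed by -0.46 without passing (adjusted p = 0.145, limma). PSD4, on the far side of IL1RN, differed by 0.31 (adjusted p = 0.118, limma). The tested genes with large differences in the cluster were thus IL1A, IL1B and IL37, while IL36RN and IL1RN at its far end had no call. IL36G, 136.3 kb from IL1B between IL37 and IL36RN, was not tested but was also lower in every shRNF25 library. The higher genes lay more than 600 kb away and included FAM138B (log2 difference 2.56), PGM5P4 (2.30) and FOXD4L1 (2.23), members of multicopy families whose reads are uncertain. FAM138B had 4 reads in shControl and 38 in shRNF25, and its call was lost without shRNF25 replicate 1 (adjusted p = 0.0597, limma). That of PGM5P4 was lost without any 1 shRNF25 library (adjusted p up to 0.0800).

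**Figure D4:**
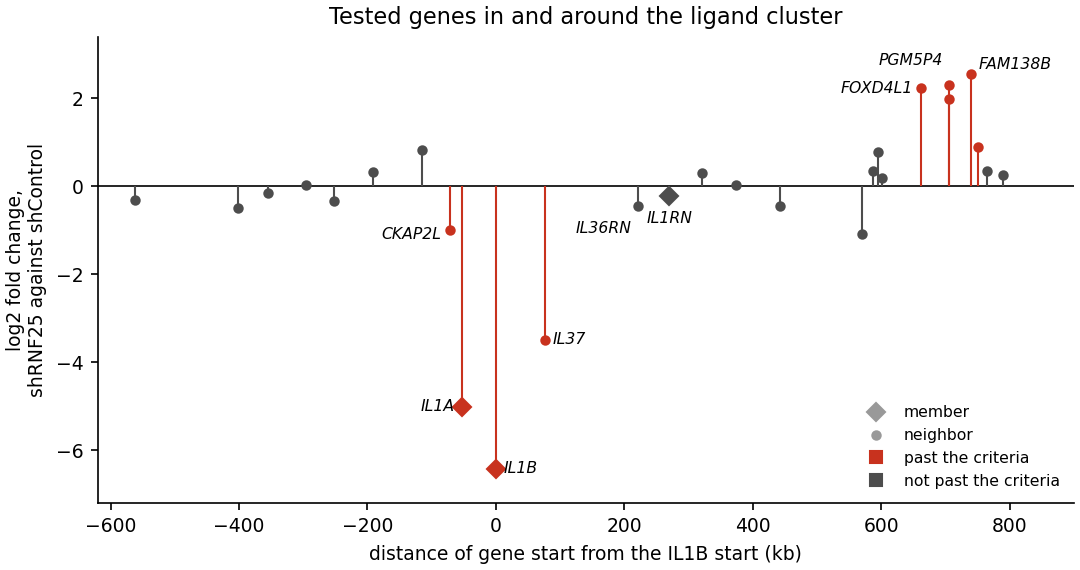
Log2 fold change, shRNF25 against shControl, of the tested genes in and around the ligand cluster by the distance of each gene start from the IL1B start in kilobases (diamonds, members, and circles, neighbors). IL1A, IL1B and IL37 are far below 0, and IL1RN at 270.3 kb is close to 0.

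Around the receptor cluster, from IL1R2 to IL1RL1, 7 further genes were measured within 500 kb and 5 were tested. IL18R1, the ligand-binding chain of the IL-18 receptor, was the only one called, against 7.1% lower and 8.65% higher among all tested genes. It had normalized counts of 138.2, 140.6 and 193.2 in shControl and of 81.1, 64.7 and 72.4 in shRNF25, with no overlap. IL18R1 fell by 1.09 on the log2 scale (adjusted p = 0.00384, limma). Its partner IL18RAP did not exceed 2.86 normalized counts in any library. Of the 10 other family ligands and receptors measured, 6 were tested. IL37 and IL18R1 were lower and none was higher (7.1% and 8.65% of all tested genes), with a median log2 difference of -0.51. The soluble IL-18 inhibitor IL18BP differed by 0.23 (adjusted p = 0.228, limma) and the inhibitory receptor SIGIRR by 0.14 (adjusted p = 0.569, limma).

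Downstream of the receptors, 18 of 20 signaling genes were tested, of which 3 were lower and none higher (7.1% and 8.65% of all tested genes), with a median log2 difference of -0.16. MAP3K8, the kinase TPL2, fell by 1.21 (adjusted p = 0.000864, limma). IRAK2, a kinase of the MYD88 complex, had a mean of 1397 ± 214 in shControl and 603.1 ± 62.1 in shRNF25 (SD, n = 3), and fell by 1.20 (adjusted p = 0.00057, limma). PELI3, a ubiquitin ligase that acts on IRAK kinases, fell by 0.66 (adjusted p = 0.0186, limma). The call for PELI3 was lost in 5 of the 6 fits that left out 1 library (adjusted p up to 0.0883, and -0.53, under the 1.5-fold limit, without shControl replicate 3), all but the one without shControl replicate 1. The adaptor MYD88 (0.04), IRAK4 (-0.04) and TRAF6 (-0.03) had log2 differences near 0, and their 95% confidence intervals lay within -0.38 to 0.30. UBE2N differed by -0.55 without overlap (adjusted p = 0.0121, limma), short of the 1.5-fold limit. No other uncalled gene of this list had an adjusted p below 0.05.

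Of 24 listed genes that process or release IL-1, 22 were measured and 19 tested. Of these 4 were lower and 1 was higher, against 7.1% and 8.65% of all tested genes, with a median of -0.16. NLRP1, an inflammasome sensor, fell by 1.53 (adjusted p = 0.000278, limma). CASP1, the protease that cleaves the IL-1beta precursor, was low, with a mean of 28.6 in shControl and 13.02 in shRNF25, and fell by 1.06 (adjusted p = 0.0192, limma). CASP4, an inflammatory caspase, fell by 0.75 (adjusted p = 0.0104, limma) and GSDME, a pore-forming gasdermin, by 0.73 (adjusted p = 0.00312, limma). The CASP1 call was lost when any 1 shRNF25 library was left out (adjusted p up to 0.0836). The CASP4 call was lost without shRNF25 replicate 1 or 3 (adjusted p = 0.0512 and 0.0553, limma) and without shControl replicate 1, where its difference was -0.57. S100A13, which takes part in the export of IL-1alpha, was the gene that rose. Its normalized counts were 102.8, 181.6 and 192.1 in shControl and 397.3, 356.5 and 411.8 in shRNF25 (adjusted p = 0.00367, limma).

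Genes commonly induced by IL-1, such as chemokines and acute-phase genes, had the lowest median of the 4 pathway lists beside the members. Of 36 listed, 33 were tested, 24 were lower and 2 higher (7.1% and 8.65% of all tested genes), with a median log2 difference of -1.90. All 4 lists were compiled with earlier results of these data known, so their counts are a description only. SAA1, an acute-phase protein, had normalized counts of 668.8, 1089 and 864.5 in shControl and of 4.56, 1.85 and 5.72 in shRNF25 (log2 difference -7.50, adjusted p = 3.035e-06, limma). Its near-identical copy SAA2 had 419 reads in shControl and 3 in shRNF25, a ratio of 0.00622 (exact 95% interval 0.00128 to 0.0183, counting error only), and reads of the copies may be split between them. CXCL5, a neutrophil chemokine, fell by 6.22 (adjusted p = 2.757e-06, limma). PTGS2, the inducible cyclooxygenase, had 1044, 807.5 and 3994 in shControl and 49.2, 51.7 and 57.2 in shRNF25, so that its control mean rested largely on 1 library. It fell by 4.81 (adjusted p = 0.000274, limma). The collagenase MMP1 rose by 0.86 (adjusted p = 0.0246, limma), a call lost without shControl replicate 2 (0.65, adjusted p = 0.0641) or any 1 shRNF25 library (adjusted p up to 0.110). The other gene past the limits in that direction was the stromelysin MMP3, with a mean of 4.26 in shControl and 13.3 in shRNF25 (adjusted p = 0.0465, limma), a low gene whose call was lost in 8 of 14 alternatives.

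**Figure D5:**
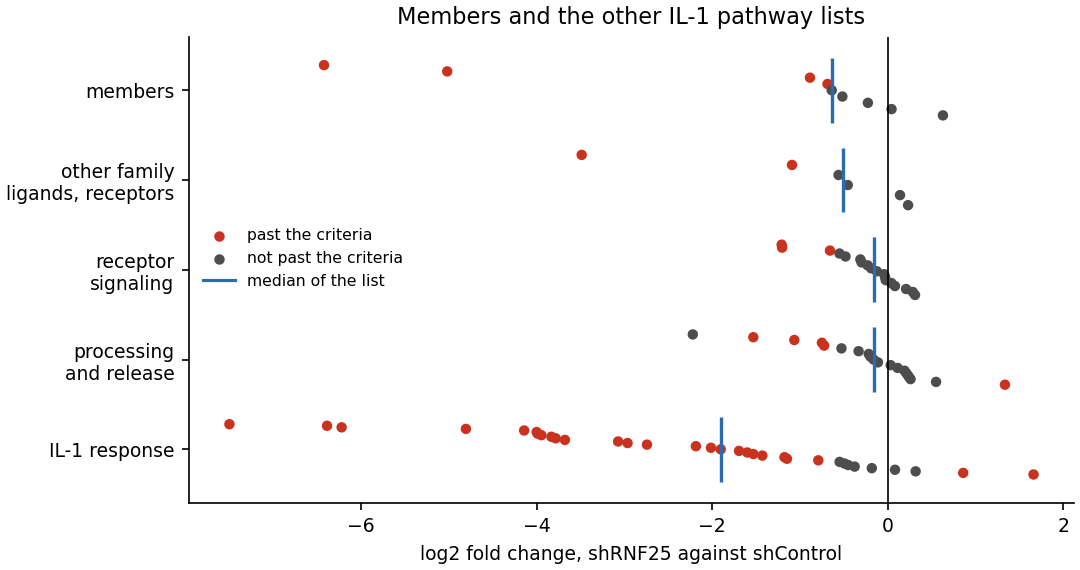
Log2 fold change, shRNF25 against shControl, of each tested gene among the members and the 4 other lists (points, genes spread vertically for legibility), with the median of each list as a blue line. The medians are -0.64 for the members, -0.51, -0.16 and -0.16 for the next 3 lists and -1.90 for IL-1 response genes.

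Closeness of pattern was measured by the root mean square difference over the 6 libraries in log2 values centered on the shControl mean. SAA2 (0.27), CXCL5 (0.34) and S100A8 (0.40) were nearest to IL1B. The nearest to IL1A were C3 (0.48), LINC02015 (0.48) and AC008760.2 (0.53). In shRNF25 the mean normalized count was 0.925 for SAA2, 0.929 for S100A8 and 0 for AC008760.2, so their distances depend on the added count of 1. The log2 difference of SAA2 ran from -7.32 to -4.69 over the alternatives. No more than 3 genes lay within 0.5 of IL1B and 2 within 0.5 of IL1A. For IL1R2 the nearest were LYPD6B (0.05), SCUBE3 (0.06) and HIP1 (0.09), for IL1RAP they were POLE2, CEP170 and HSP90B1, and for IL1RL1 they were STOM, TMEM45B and PMEPA1. IL1RN was closest to CELF5, STX17 and UPRT, IL1R1 to AC034236.1, STMN1 and CNN3, IL18 to PNISR, LUC7L3 and CDK19, and IL33 to AL731702.1, LMO7-AS1 and NAALADL2. These small distances describe genes of modest or no difference, of which there are many.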

How the data were processed

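Bulk RNA-seq of SW839 cells was used, with 3 shRNF25 and 3 shControl libraries grouped by their titles, genotype labels and library names. The treatment text of all samples, controls included, speaks of the RNF25 hairpin. The authors deposited 1 table with a normalized count signal per gene and library. Per the study's methods, RNA was depleted of ribosomal RNA, libraries were stranded and differential expression was called with DESeq2. The submitters' processing notes name fastp, HISAT2, HTSeq and GRCh38. The annotation and strand setting are not given in the sources used here. Multiplying by 1 factor per library (0.905 to 1.10) made 100% of values whole within 0.000124 reads, which gave reads per library. The factors matched DESeq2 size factors of those reads to 5 decimals.

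Genes reaching 10 in 3 or more libraries were tested on log2(value + 1) with limma 3.58.1 (trend) in R 4.3.3, with Benjamini-Hochberg adjustment. Moderated confidence intervals are given. Fold changes of low genes are understated on this scale. Ratios were tested with a two-sided exact permutation test in Python 3.11.15. The script was tested on simulated data. Alternatives were pseudocounts of 0.5 and 5, no filter or a filter at 50, quantile normalization, rescaling by the median ratio, edgeR 4.0.16 and DESeq2 1.42.0 on recovered reads, a replicate block, a fold limit of 2 and leaving out each library. Lengths and positions came from GENCODE 29, upstream sequences from RefSeq (GRCh38.p14), which matched 9 of the 10 members, all but IL18. IL36A, IL1RL2, CASP5 and CARD18 were not analysed here.

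Named were RNF25, all members, up to 4 lower and 4 higher called genes per list and per cluster by size of difference, and the 3 nearest genes per member. IL36RN, PSD4, CKAP2L, IL18RAP, IL18BP, SIGIRR, MYD88, IRAK4, TRAF6 and UBE2N were added after their values were seen. Members and lists were chosen with earlier results of these data known. The labels call the libraries biological triplicates, and p-values measure only the spread between these libraries.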

Additional observations from a re-analysis of the deposited data

How the results depend on the processing

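IL1A (-5.36 to -4.74), IL1B (-6.54 to -6.25) and IL1R2 (-1.05 to -0.78) kept their direction and passed an adjusted p of 0.05 under all 15 alternatives, with a highest adjusted p of 0.0440. With a fold limit of 2, lower calls numbered 513 over all genes, 2 among the members (IL1A and IL1B) and 2 among processing genes, and higher calls 893 over all genes. A filter at 50 gave 898 higher genes and 1 higher neighbor of the ligand cluster. IL-1 response genes called higher numbered 1 with a pseudocount of 0.5, no filter, a filter at 50, quantile normalization, DESeq2 or a fold limit of 2. Rescaling by the median ratio gave 2 higher processing genes and moved the median of all genes from -0.01 to 0.05. IL36G had a difference of -1.74 without a filter (adjusted p = 0.0277, limma) and of -1.07 with a pseudocount of 5.

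When each library was left out in turn, lower genes numbered 813 to 1269 and higher genes 748 to 1725. Lower members numbered 3 to 5, with 3 without shControl replicate 2 or any 1 shRNF25 library, and higher members 0 to 1. There were 2 to 4 lower and 1 to 2 higher processing genes and 0 to 3 higher IL-1 response genes. The ligand cluster had 1 to 3 lower and 1 to 5 higher neighbors and the receptor cluster 0 to 1 higher neighbors. The log2 difference then ran from -0.74 to -0.32 for IL1R1, -0.85 to -0.50 for IL1RAP, -0.80 to -0.36 for IL1RL1, 0.46 to 0.94 for IL33 and -0.08 to 0.28 for IL18. The sign of IL18 turned without shControl replicate 2 (-0.082), shControl replicate 3 (-0.065) or shRNF25 replicate 1 (-0.033). The causes of these shifts were not tested.

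Libraries with the same replicate number did not deviate together (correlations of -0.06, -0.09 and 0.05). With 3 libraries per group, these correlations cannot exclude that same-numbered libraries were prepared together. A replicate block gave 5 lower members, with IL1RL1 at -0.64 (adjusted p = 0.0447, limma), and 1193 lower and 1398 higher genes. DESeq2 put IL1RL1 at -0.68 (adjusted p = 0.0332). On recovered reads, edgeR called 1133 genes lower and 1525 higher, including 4 lower members, and DESeq2 1220 and 1414, including 5. The shRNF25 values of IL1A, and all values of IL33 and IL36G, were limited by depth.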
